A study of Arabidopsis thaliana with 8 samples.

Results

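By annotated length, ribosomal proteins L41 and L39 of the large ribosomal subunit and S29 of the small subunit are among the shortest of Arabidopsis thaliana. Here 10 genes that encode them were followed through 8 RNA libraries of inflorescences. They are 4 of the L41 genes (AT3G11120, AT3G08520, AT3G56020 and AT2G40205), 3 L39 genes (AT2G25210, AT3G02190 and AT4G31985) and 3 S29 genes (AT3G43980, AT3G44010 and AT4G33865), out of 32232 loci in the deposited table. They were chosen by their FPKM with RNase R relative to that without, since members of these families had large drops, so that contrast is given below as a description, with no test. Of the 10 genes, 9 passed the expression filter (no less than 1 FPKM in 2 or more libraries), as did 14351 loci in all. AT3G08520 did not pass.

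Ribosomal proteins are needed wherever plant cells grow and divide, and the coding sequences of these families are among the shortest that a cell translates. L41 is a short basic helix placed, in yeast ribosomes, at the contact between the 2 subunits. L39 lines the tunnel through which the nascent chain leaves the large subunit, and S29 is a zinc-binding protein of the head of the small subunit. RNase R is an exonuclease that digests linear RNA from its 3′ end, while circular RNA and the loop of an intron lariat resist it. DBR1 is the enzyme that opens lariats after splicing, and the series is about branchpoints and lariats.

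The 4 groups, with 2 libraries each, were the mutant dbr1-2 with RNase R, dbr1-2 without RNase R, wild-type Col-0 with RNase R and Col-0 without RNase R. Plants were kept at 22 °C in days of 16 h light and 8 h dark, and all RNA was depleted of ribosomal RNA. Digestion with RNase R lasted 2 h at 37 °C. The labels name no promoter, transgene or number of plants, and the 2 libraries of a group carry the same sample code, so p-values measure the spread between libraries, which may be technical. Sequencing tags carry a date of the earlier year for both dbr1-2 libraries and of the later year for both Col-0 libraries with RNase R, so tag year and genotype cannot be told apart there. Without RNase R, replicate 1 has the earlier and replicate 2 the later year in both genotypes. The tag of dbr1-2 replicate 1 with RNase R names removal of ribosomal RNA alone, while the other 7 also name removal of mRNA, and the part of that step in the values was not tested.

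DBR1 itself had 0.339 and 0.430 FPKM in undigested dbr1-2 RNA, against 0.662 and 0.694 FPKM in undigested Col-0 RNA. After RNase R it had 0.265 and 0.260 FPKM in dbr1-2, against 0.202 and 0.188 FPKM in Col-0. Summed FPKM of 6 flower markers was 50.4 to 53.4 in dbr1-2 and 52.7 to 55.0 in Col-0 without RNase R, and 3 root markers summed to no more than 0.356 FPKM in any library. Other marker sums differed between the undigested groups. For 3 pollen markers the sum was 3.78 to 4.28 FPKM in dbr1-2 and 14.3 to 15.3 FPKM in Col-0. For 3 markers of green tissue it was 1821 to 1899 FPKM in dbr1-2 and 1408 to 1623 FPKM in Col-0. Of the green tissue markers, RBCS1A and RCA were higher in dbr1-2. CAB1 was lower there, at 484 to 485 FPKM against 638 to 667 FPKM in Col-0. Of the flower markers, only PI was higher without overlap, at 20.4 to 21.3 FPKM in dbr1-2 and 14.8 to 15.0 FPKM in Col-0. SEP3 was lower, at 11.4 to 11.8 FPKM in dbr1-2 and 15.9 to 16.5 FPKM in Col-0. AP1, AG and LFY were also lower in dbr1-2 without overlap, and AP3 overlapped. The part of these differences in the results below was not tested. The FPKM of all loci added up to 2796449 to 4003096 with RNase R and 295494 to 384482 without it. From the steps between low values, 1 FPKM on 1 kb of usable length stood for 8.56 to 12.3 reads with RNase R and for 74.7 to 90.1 reads without it. Approximate read numbers below use that worth and cover counting error only.

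The L41 genes of Arabidopsis differ by so little that their reads may be hard to assign. Over the 78 bases of the coding sequence, pairs of the 5 L41 genes differ at 1 to 8 positions, which is an identity of 89.7% to 98.7%. The 4 sequences printed here, taken from the RefSeq annotation of the TAIR10.1 genome, are the most alike pair (AT3G08520 and AT3G56020), the most abundant of the chosen L41 genes (AT3G11120) and the L41 gene outside the 10 (AT1G56045), and capitals mark the 9 positions that vary within the family.
AT3G11120: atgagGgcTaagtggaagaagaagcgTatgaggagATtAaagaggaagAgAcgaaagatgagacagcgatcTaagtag
AT3G08520: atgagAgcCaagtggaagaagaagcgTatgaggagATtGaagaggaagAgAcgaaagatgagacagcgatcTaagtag
AT3G56020: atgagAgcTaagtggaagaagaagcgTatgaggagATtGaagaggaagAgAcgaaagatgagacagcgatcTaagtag
AT1G56045: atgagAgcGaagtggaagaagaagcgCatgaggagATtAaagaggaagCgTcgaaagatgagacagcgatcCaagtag
AT3G08520 and AT3G56020 differ at 1 position, and the longest run their transcripts share is 70 bases. AT1G56045 shares runs of only 20 or 21 bases with the others.

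AT3G11120 lies on the plus strand of chromosome 3 (TAIR10.1, 3481020 to 3481485) with 1 intron and encodes 25 residues. It had 2.71 and 1.27 FPKM in dbr1-2 with RNase R, about 4 and 2 reads, against 51.6 and 42.9 FPKM in dbr1-2 without it, about 374 and 296 reads. In Col-0 it was listed at 0 in both libraries with RNase R, against 64.6 and 49.0 FPKM without it. The libraries with and without RNase R were thus far apart in both genotypes, and dbr1-2 with RNase R lay above Col-0 with RNase R without overlap. On the log2(FPKM + 1) scale the difference, with RNase R minus without, was -4.05 in dbr1-2 and -5.84 in Col-0, where the value depends on the pseudocount because Col-0 is listed at 0.

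AT3G56020 (chromosome 3, minus strand, 20790502 to 20791163) had 0.834 and 0.397 FPKM in dbr1-2 with RNase R, about 2 reads and 1 read, against 24.1 and 16.4 FPKM without it. In Col-0 it had 0.486 FPKM in replicate 1 and was listed at 0 in replicate 2 with RNase R, against 19.4 and 19.5 FPKM without it. Here the genotypes overlapped under either treatment. AT2G40205 (chromosome 2, minus strand, 16792175 to 16792622), which overlaps a gene on the opposite strand, had the lowest FPKM without RNase R of the tested genes: it was listed at 0 and had 0.706 FPKM in dbr1-2 with RNase R, against 2.46 and 1.46 FPKM without it. In Col-0 it was listed at 0 in both libraries with RNase R, against 2.02 and 2.45 FPKM without it. AT3G08520 (chromosome 3, plus strand, 2586001 to 2586343) was listed at 0 in all 8 libraries. An exact 0 can be a failed estimate, and this locus shares its listed interval with a neighbouring gene and its sequence with AT3G56020, so its level is not known from these values.

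The L41 gene outside the 10, AT1G56045, had 9.36 and 3.45 FPKM in dbr1-2 with RNase R, against 84.5 and 70.7 FPKM without it. The Col-0 libraries had 4.93 and 9.76 FPKM with RNase R, against 76.9 and 76.6 FPKM without it. Its differences of -3.53 in dbr1-2 and -3.28 in Col-0 on the log2(FPKM + 1) scale place it beside the chosen genes, and it kept 8.25% and 9.57% of its FPKM in dbr1-2 and Col-0 while AT3G56020 kept 3.04% and 1.25%. The rule left this gene out, so the 10 are not the whole of the 3 families.

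The L39 genes have an identity of 81.5% to 92.6% over the last 135 bases of the coding sequence. The annotated coding sequence of AT2G25210 is 135 bases long, whereas those of AT3G02190 and AT4G31985 are 156 bases long. The 2 most abundant are printed to show the earlier start in AT4G31985, which opens with bases that the annotated coding sequence of AT2G25210 lacks. Capitals mark the 29 positions that vary among the 3 genes.
AT2G25210: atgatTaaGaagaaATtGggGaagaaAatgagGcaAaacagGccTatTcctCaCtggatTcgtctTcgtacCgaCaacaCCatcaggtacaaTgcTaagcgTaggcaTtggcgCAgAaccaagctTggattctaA
AT4G31985: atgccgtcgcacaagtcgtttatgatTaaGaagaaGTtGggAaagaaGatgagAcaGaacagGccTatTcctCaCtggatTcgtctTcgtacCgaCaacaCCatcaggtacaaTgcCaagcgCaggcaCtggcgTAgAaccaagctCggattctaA
AT2G25210 (chromosome 2, plus strand, 10739855 to 10740552, with 2 introns) had 1.85 and 1.06 FPKM in dbr1-2 with RNase R, about 5 and 3 reads, against 49.5 and 36.3 FPKM without it. Col-0 gave 0.427 and 0.562 FPKM with RNase R, about 1 read each, against 42.7 and 37.5 FPKM without it. Both dbr1-2 libraries with RNase R were above both Col-0 libraries with RNase R, while the genotypes overlapped without it.

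AT4G31985 (chromosome 4, plus strand, 15469841 to 15470733) had 3.19 and 1.90 FPKM in dbr1-2 with RNase R, about 8 and 5 reads, against 63.2 and 51.1 FPKM without it. In Col-0 it had 1.86 and 3.06 FPKM with RNase R, about 4 and 5 reads, against 55.2 and 48.9 FPKM without it. The genotypes overlapped under both treatments, and this gene kept 4.46% of its FPKM in dbr1-2 and 4.72% in Col-0. AT3G02190 (chromosome 3, minus strand, 405756 to 406487), the rare L39 copy, also overlaps a gene on the opposite strand. It had 0.366 FPKM and was listed at 0 in dbr1-2 with RNase R, against 6.14 and 4.84 FPKM without it. In Col-0 it was listed at 0 and had 0.557 FPKM with RNase R, against 6.55 and 5.43 FPKM without it. The sources used here do not say whether reads were counted by strand. Whether reads of AT3G02190 and AT2G40205 were kept apart from those of the genes opposite them is therefore not known.

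The S29 genes share 171 bases of coding sequence with an identity of 87.7% to 94.2%. The closest pair, AT3G43980 and AT3G44010, are near neighbours on chromosome 3 whose levels differ widely, and they are printed for that reason. Capitals mark the 24 positions that vary among the 3 genes.
AT3G43980: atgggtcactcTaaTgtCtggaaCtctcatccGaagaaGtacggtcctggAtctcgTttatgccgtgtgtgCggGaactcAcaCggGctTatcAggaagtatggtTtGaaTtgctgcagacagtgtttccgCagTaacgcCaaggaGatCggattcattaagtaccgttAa
AT3G44010: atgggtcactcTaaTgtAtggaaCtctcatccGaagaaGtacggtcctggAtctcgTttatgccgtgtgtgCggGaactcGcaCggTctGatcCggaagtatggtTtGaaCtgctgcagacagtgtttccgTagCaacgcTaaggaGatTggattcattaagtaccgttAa
These 2 coding sequences differ at 10 positions, and their longest shared run is 62 bases. AT3G44010 (chromosome 3, minus strand, 15799481 to 15801227) had 3.80 and 2.86 FPKM in dbr1-2 with RNase R, about 14 and 11 reads, against 77.7 and 66.9 FPKM without it. Col-0 libraries had 1.54 and 1.62 FPKM with RNase R, about 5 and 4 reads, against 73.4 and 63.2 FPKM without it. Its 2 dbr1-2 libraries with RNase R stood above the 2 from Col-0, and without RNase R the genotypes overlapped.

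AT4G33865 (chromosome 4, minus strand, 16233045 to 16234273) had 2.53 and 3.03 FPKM in dbr1-2 with RNase R, about 8 and 10 reads, against 58.8 and 44.7 FPKM without it. In Col-0 it had 2.54 and 0.478 FPKM with RNase R, about 7 reads and 1 read, against 55.4 and 44.8 FPKM without it. With RNase R, Col-0 replicate 1 lay among the dbr1-2 values and Col-0 replicate 2 well below them. AT3G43980 (chromosome 3, minus strand, 15778275 to 15779360) had 0.745 and 1.42 FPKM in dbr1-2 with RNase R, against 12.5 and 8.85 FPKM without it. Values in Col-0 were 0.431 and 1.13 FPKM with RNase R, against 11.5 and 10.0005 FPKM without it. Without RNase R, AT3G44010 was therefore the highest of the S29 genes and AT3G43980 the lowest, in both genotypes.

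**Figure D1:**
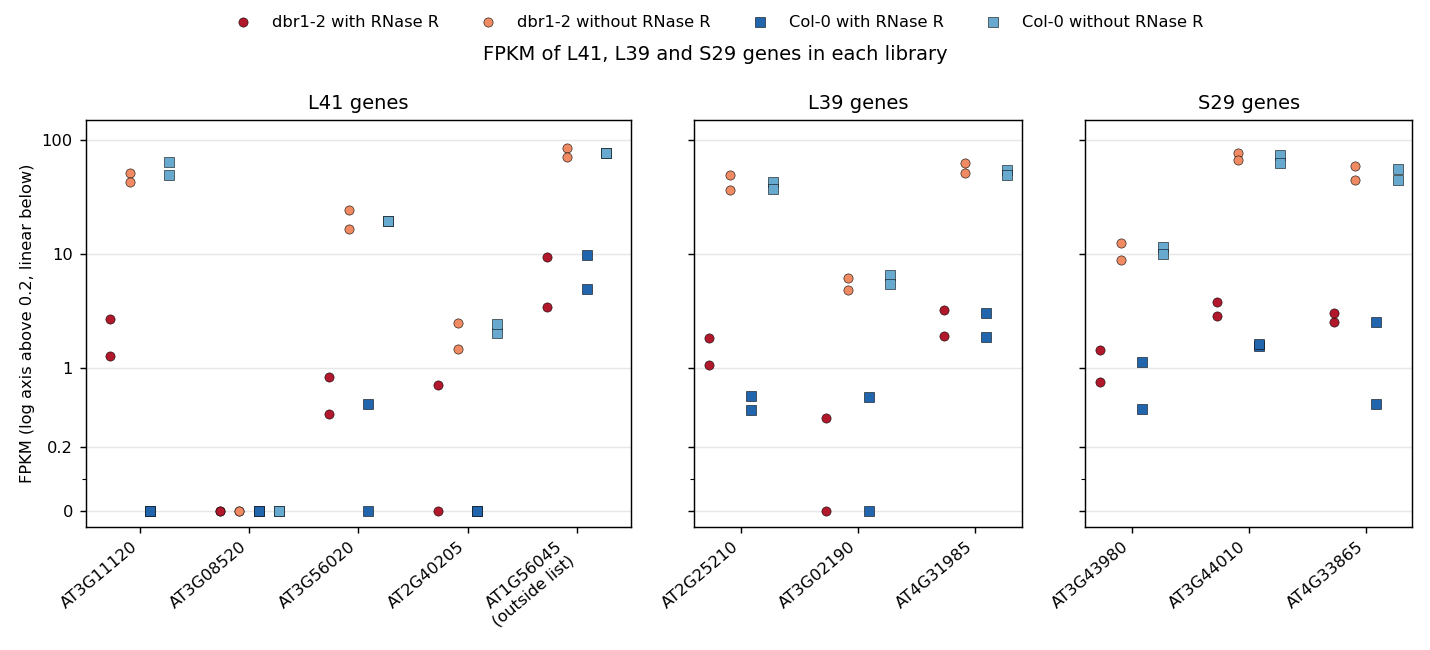
FPKM of each L41, L39 and S29 gene in each of the 8 libraries, on an axis that is logarithmic above 0.2 FPKM and linear below it; each point is 1 library, coloured by group. For the 9 tested genes the libraries with RNase R lie between 0 and 3.80 FPKM and those without it between 1.46 and 77.7 FPKM, while AT3G08520 is at 0 throughout.

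Summed over the 10 genes, the FPKM was 16.0 and 12.6 in dbr1-2 with RNase R and 346 and 273 in dbr1-2 without it, and in Col-0 it was 7.28 and 7.41 with digestion and 331 and 281 without it. In reads, the sums with RNase R came to about 45 and 40 in dbr1-2 and about 20 and 15 in Col-0. Of the 36 values of the tested genes with RNase R, 8 were listed at 0 and 28 were above it, and 23 of those 28 came within 0.1 read of a whole read count. The comparisons between genotypes with RNase R thus rest on 14 reads or fewer per gene and library.

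Without RNase R, FPKM, which is per length, allowed the genes to be ordered. The usable length of AT3G11120 was only 97 and 92 nt in dbr1-2 and 94 and 87 nt in Col-0. Its place therefore depends on the length correction, and reads of L41 genes may be hard to assign. AT3G44010 averaged 72.3 ± 7.68 FPKM in dbr1-2 and 68.3 ± 7.24 FPKM in Col-0 (SD, n = 2 each) and was first in both genotypes, though in Col-0 its range overlapped that of AT3G11120. In dbr1-2, AT4G31985, AT4G33865, AT3G11120 and AT2G25210 followed, and each overlapped its neighbour in that order. In Col-0 AT3G11120 stood second, ahead of AT4G31985 and AT4G33865, and these also overlapped, while AT2G25210 followed them, apart from AT4G33865. AT3G56020, AT3G43980, AT3G02190 and AT2G40205 came next in this order in both genotypes, each apart from its neighbours. Each family thus held both a gene of the upper part of this order and a gene of its lower end. With RNase R the genes stood close together: in dbr1-2 each overlapped the next, and in Col-0 only AT4G31985 was clear of the gene below it.

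As to the contrast that chose them, the 9 genes had a median difference, with RNase R minus without, of -3.79 in dbr1-2 and -4.07 in Col-0 on the log2(FPKM + 1) scale, where all tested loci had medians of -0.69 and -0.66. All 9 were lower with RNase R without overlap in each genotype, as were 74.6% of tested loci in dbr1-2 and 79% in Col-0. AT3G11120, AT2G25210 and AT3G44010 stood 6th, 11th and 12th from the lowest of the 14351 loci by their mean difference over the genotypes, and AT4G33865, AT4G31985 and AT3G56020 stood 19th, 27th and 33rd. AT3G43980, AT3G02190 and AT2G40205 were at places 251, 299 and 1875. The pseudocount limits how low a rare gene can go. In dbr1-2, AT3G02190 kept 3.33% of its FPKM and AT3G44010 kept 4.60%, yet their differences were -2.47 and -4.09. That 3.33% rests on about 1 read in replicate 1 and 0 in replicate 2, against about 14 and 11 reads for AT3G44010. In Col-0 the order was the reverse, with 4.65% for AT3G02190 and 2.31% for AT3G44010. Differences of the other genes were -3.71 and -4.07 for AT3G56020 in dbr1-2 and Col-0, -1.16 and -1.69 for AT2G40205, -4.17 and -4.78 for AT2G25210, and -4.05 and -3.96 for AT4G31985. Among S29 genes they were -2.49 and -2.75 for AT3G43980, -4.09 and -4.74 for AT3G44010, and -3.79 and -4.47 for AT4G33865.

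Of the other cytosolic ribosomal protein genes, most also had lower FPKM with RNase R. The list of other cytosolic ribosomal protein genes held 202 loci in the table, of which 192 were tested. Their median difference with RNase R was -1.81 in dbr1-2 and -1.90 in Col-0, and 178 of them passed the limma test as lower in dbr1-2 and 183 in Col-0 (adjusted p under 0.05). The share of all tested loci called lower was 69.3% in dbr1-2 and 71% in Col-0. By mean difference, the 9 genes took places 1, 2, 3, 6, 8, 11, 68, 73 and 134 among the 201 tested ribosomal protein genes. On this scale rare genes stand further from the lowest place than by the share of FPKM they kept. AT3G02190 was at place 73 by mean difference, but by that share at place 4 in dbr1-2 and 20 in Col-0. Its share rests, in each genotype, on about 1 read in 1 library with RNase R and 0 in the other, so these places are loose. The other genes kept a median of 24.0% in dbr1-2 and 21.4% in Col-0. The lowest of the others were AT5G56710, a gene for L31, with a mean difference of -4.27, AT2G39460 for L23a with -4.25 and AT3G60245 for L37a with -4.03. At the other end, AT5G67510 for L26 and AT4G17390 for L15 were both at 1.89, on the side of higher values with RNase R.

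Annotated protein length ran with the difference only loosely. Among the 192 other ribosomal protein genes, the median was -2.88 for the 18 with up to 100 residues, -2.15 for 76 with 101 to 150, -2.04 for 43 with 151 to 200 and -1.36 for 55 that were longer. Spearman's rho between length and mean difference was 0.29 over these 192 genes, which share libraries, depth and the length correction in FPKM, and Pearson's r was 0.31. With exon length rho was 0.26, and with mean FPKM without RNase R it was -0.09. Apart from AT1G56045 the shortest of them were S30 genes with 62 residues and S28 genes with 64. The S30 gene AT4G29390 differed by -3.37 in dbr1-2 and -3.58 in Col-0, AT5G56670 by -1.93 and -3.67, and AT2G19750 by -2.98 and -2.70. The S28 gene AT5G03850 differed by -3.24 and -4.70, AT3G10090 by -3.10 and -2.95, and AT5G64140 by -2.97 and -2.87. In dbr1-2 the L39 and S29 genes, of 44 to 56 residues, spanned -4.17 to -2.47, so AT5G56670 lay outside that range. Next in length were L38 genes with 69 residues. AT3G59540 differed by -1.34 in dbr1-2 and -1.46 in Col-0, and AT2G43460 by -0.48 and -2.10.

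**Figure D2:**
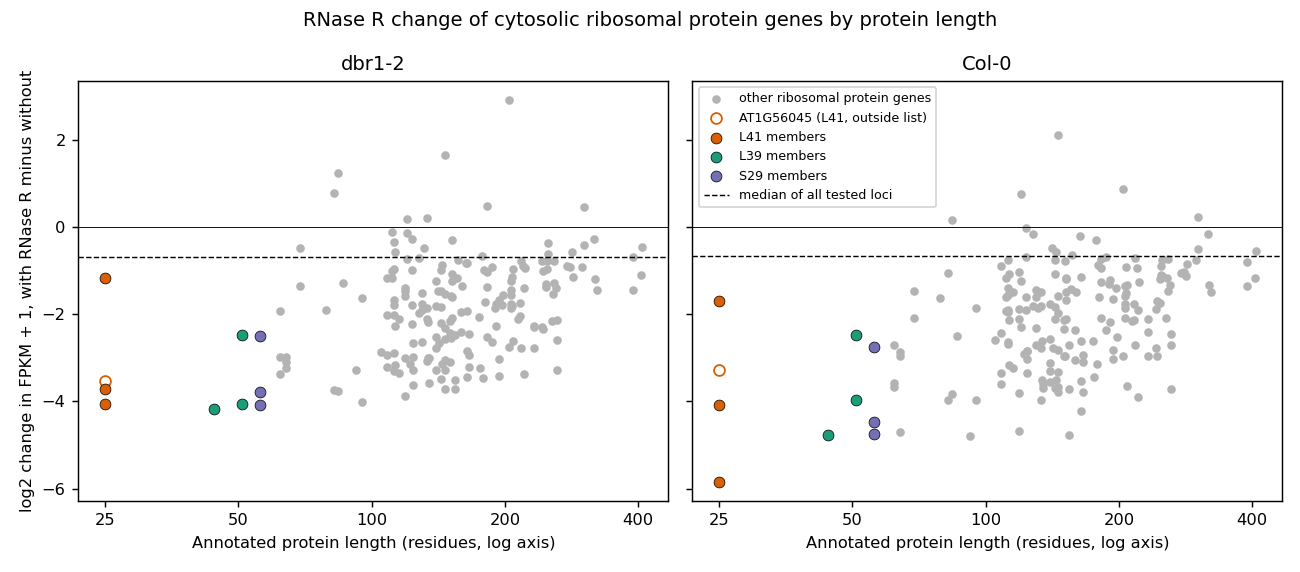
Difference in log2(FPKM + 1), with RNase R minus without, against annotated protein length on a log axis, for dbr1-2 (left) and Col-0 (right); each point is 1 gene and the dashed line is the median of all tested loci. The coloured L41, L39 and S29 genes lie below the dashed line in both genotypes, together with many longer ribosomal protein genes in grey.

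Without RNase R, no difference between the genotypes was detected for any of the 9 genes, a comparison that did not enter their choice, although its libraries did. In the limma test, 0 of 9 passed an adjusted p of 0.05 and 0 had an unadjusted p under 0.05, where 17.5% and 31.2% of all tested loci did. In the alternatives run, none passed either. The lowest adjusted p was 0.504, for AT3G11120, at -0.25 ± 0.23 (SE) on the log2(FPKM + 1) scale, dbr1-2 minus Col-0. The other 8 lay between -0.14 for AT2G40205 and 0.13 for AT4G31985. Replicates overlapped between genotypes for all 9, whereas 73.2% of tested loci had no overlap. The median of the 9 was 0.03 and that of all tested loci 0.13, and in bulk RNA fewer cells of a type and less RNA per cell cannot be told apart. Within tag years the sign held for AT3G11120, at -0.32 in the earlier and -0.19 in the later year, and AT3G44010 was at 0.08 in both years. The sign was the same in both years for 4 of the 9 genes and opposite for 5, among them AT2G40205, at 0.20 in the earlier and -0.49 in the later year, and AT3G56020, at 0.30 and -0.24. Among the other cytosolic ribosomal protein genes, 1 of 192 was called higher and 0 lower (limma, 5 with an unadjusted p under 0.05). It was AT5G39850, an S9 gene, at 8.04 FPKM in dbr1-2 and 3.16 FPKM in Col-0 (log2 1.12 ± 0.12 SE, limma adjusted p = 0.0011).

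With RNase R, 3 of the 9 genes were higher in dbr1-2 than in Col-0 by the limma test and 0 were lower, at 1 gene per family. They were the L41 gene AT3G11120, the L39 gene AT2G25210 and the S29 gene AT3G44010, and these were also the 3 whose libraries did not overlap. Across all tested loci 37% were called, 29.9% as higher and 7.09% as lower, and 44.9% were higher without overlap, so a count of 3 of 9 is near the background. As deposited, 4298 loci were higher and 1017 lower, and after median-ratio scaling 3513 were higher and 1978 lower. The libraries compared here also entered the contrast by which the genes were picked. AT3G11120 was at 1.54 ± 0.23 (SE) on the log2(FPKM + 1) scale (limma adjusted p = 0.0015), a size set by the pseudocount, since it was 4.29 with a pseudocount of 0.1. It had about 4 and 2 reads in dbr1-2 and was listed at 0 in Col-0, where 3 reads would be 2.51 and 3.31 FPKM, so this depth does not show how far the genotypes differ. AT2G25210 rose by 0.70 ± 0.19 (limma adjusted p = 0.0234), with dbr1-2 at 293% of the FPKM of Col-0. That ratio rests on about 5 and 3 reads in dbr1-2 and about 1 read in each Col-0 library. AT3G44010 rose by 0.74 ± 0.14 (limma adjusted p = 0.00404), with dbr1-2 at 211% of Col-0, on about 14 and 11 reads against about 5 and 4. Each SE draws on all 4 groups, the undigested ones included, so it does not measure the counting error of these few reads.

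The other 6 genes did not pass the test with RNase R. AT4G33865 was at 0.72 ± 0.36 (SE, limma adjusted p = 0.155), about the size of the called S29 and L39 genes but with a wider spread between the Col-0 libraries. AT3G56020 and AT2G40205 were both at 0.39 (limma adjusted p = 0.235 and 0.272), and AT3G43980 was at 0.23 (0.491). AT4G31985, at 0.04 (0.922), and AT3G02190, at -0.09 (0.79), were the nearest to 0. The L41 gene outside the list, AT1G56045, was at -0.24 ± 0.39 (limma adjusted p = 0.679). Within each family 1 gene thus passed and others did not. Passing or not is no measure of a difference between genes, and differences between genes were not tested. The 3 calls also depended on scaling. With the values as TPM only AT3G11120 passed, at 0.59 (limma adjusted p = 0.0385), and with organelle and ribosomal RNA loci removed none did. With tag year as a covariate only AT3G11120 passed, at 1.21 (limma adjusted p = 0.0416). The year effect in that fit comes only from the libraries without RNase R. It therefore cannot part year from genotype among the libraries with RNase R. AT2G25210 lost its call under 8 of 17 alternatives, among them no filter and only the 4 libraries compared (limma adjusted p = 0.0664 and 0.0836), and also when a library with RNase R was left out, be it Col-0 replicate 1, replicate 2 of Col-0 or dbr1-2 replicate 1 (limma adjusted p = 0.0987, 0.0595 and 0.101). AT4G33865 gained one at 1.35 without Col-0 replicate 1, and AT2G40205 one at 0.77 without dbr1-2 replicate 1, which leave 1 library in that group.

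**Figure D3:**
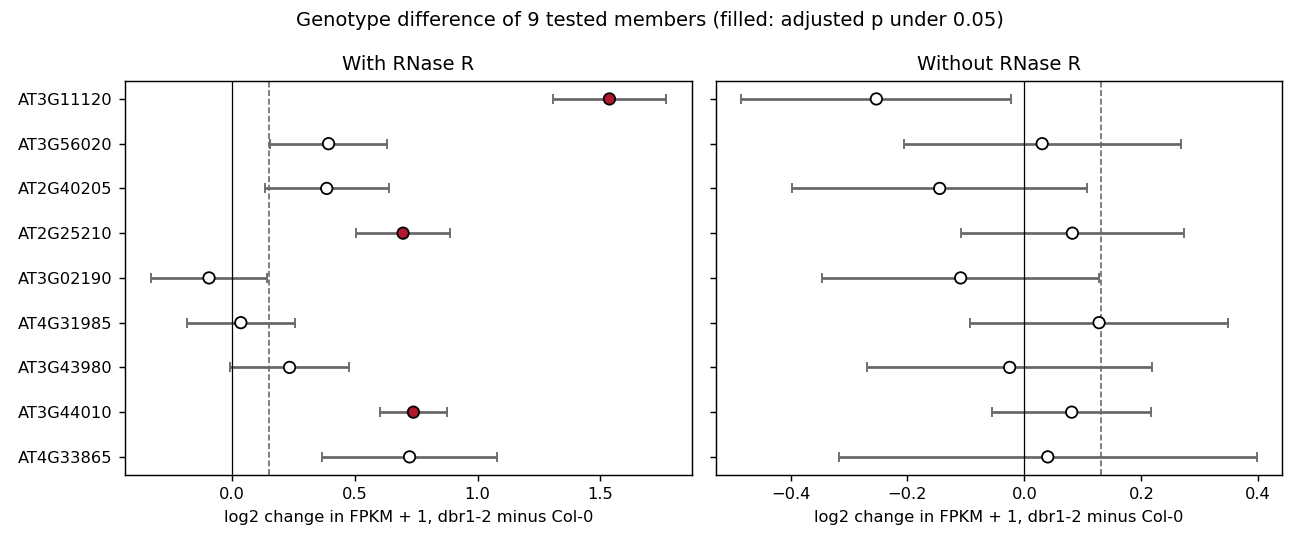
Difference in log2(FPKM + 1), dbr1-2 minus Col-0, of the 9 tested genes with RNase R (left) and without it (right); points are fitted values from 2 libraries per group, bars are the SE, filled points have an adjusted p under 0.05 and dashed lines are the median of all tested loci. With RNase R, AT3G11120, AT2G25210 and AT3G44010 are filled; without it none is, and the horizontal scales differ.

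With RNase R, the 192 other cytosolic ribosomal protein genes held 46 that were higher in dbr1-2 than in Col-0, 19 that were lower and 127 not called (limma), beside 29.9% higher and 7.09% lower over all tested loci, with a median of 0.05 where the 9 genes had 0.39 and all tested loci 0.15. The S26 gene AT2G40510 averaged 25.9 ± 2.34 FPKM in dbr1-2 and 7.26 ± 0.90 FPKM in Col-0 (SD, n = 2 each). The S28 gene AT5G03850, another short one, averaged 4.07 ± 0.32 FPKM in dbr1-2 and 0.755 ± 0.14 FPKM in Col-0. In the other direction, the L26 gene AT5G67510 averaged 83.2 ± 3.33 FPKM in dbr1-2 and 130 ± 7.47 FPKM in Col-0. The S26 and L26 genes had adjusted p of 2.8e-05 and 0.00118 by limma, and the S28 gene 3.83e-05.

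The difference between the 2 RNase R differences, dbr1-2 minus Col-0, is made of the values that chose the genes and is given as a description. It was above 0 for 8 of the 9 genes, with a median of 0.53, where all tested loci had 0.01 and the other cytosolic ribosomal protein genes 0.10. AT3G11120 was at 1.79, where Col-0 is listed at 0. AT4G33865 was at 0.68, AT3G44010 at 0.66 and AT2G25210 at 0.61, and AT4G31985 was the one below 0, at -0.09.

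The loci most like these genes were found by the root mean square difference of their log2(FPKM + 1) profile over the 8 libraries from the median profile of the 9, each centred on its mean without RNase R. The nearest was AT4G34620, annotated as small subunit ribosomal protein 16, with a root mean square difference of 0.167. It averaged 4.30 FPKM in dbr1-2 with RNase R, against 82.2 FPKM without it, and in Col-0 2.84 FPKM with RNase R, against 66.9 FPKM without it. AT1G09590 (annotated as a translation protein of the SH3-like family, 0.184), AT3G26740 (CCR-like, 0.198), AT5G47930 (a zinc-binding ribosomal protein, 0.228) and AT1G15002 (0.243, with no product given) followed. Of these, AT1G09590 and AT5G47930 are on the list of cytosolic ribosomal protein genes.

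The table names a second locus after the S29 gene AT3G43980, which the rule set aside for its lower mean without RNase R, and it is described here because its values, once seen, ran the other way. It was placed on the plus strand from its number, since all 93 numbered neighbours lie on that strand, while all 95 neighbours of the S29 locus lie on the minus strand. The second locus had 14.3 and 10.02 FPKM in dbr1-2 with RNase R, against 0.676 and 0.436 FPKM without it. In Col-0 it had 1.69 and 2.47 FPKM with RNase R, against 0.487 and 0.298 FPKM without it. Both genotypes were thus higher with RNase R without overlap, by 3.07 in dbr1-2 and 1.14 in Col-0 on the log2(FPKM + 1) scale, opposite in sign to the S29 locus at the same place. The difference dbr1-2 minus Col-0 was 2.09 with RNase R and 0.16 without it, given with no test since the locus was chosen for these values. The exons of this locus are not known from the table, so no read number is given for it. Whether its reads belong to an antisense RNA or to RNA of the S29 gene was not tested.

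**Figure D4:**
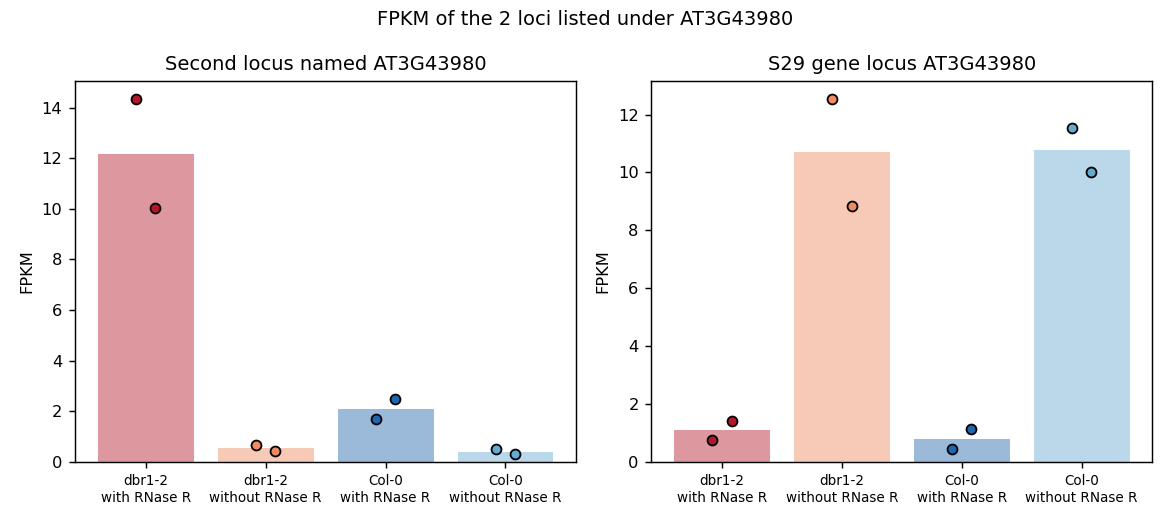
FPKM of the second locus named AT3G43980 (left) and of the S29 gene locus AT3G43980 (right) in the 4 groups; points are libraries and bars are means of 2. The second locus is highest in dbr1-2 with RNase R at 14.3 and 10.02 FPKM, where the S29 locus has 0.745 and 1.42 FPKM, and the vertical scales differ.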

How the data were processed

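Ribosomal RNA-depleted RNA was made into libraries with a stranded Illumina kit and sequenced on a HiSeq instrument, per the labels' protocols. The authors deposited FPKM, 1 value per locus and library. Per the submitters' processing notes, the tools were Cuffnorm 2.2.1, Cufflinks 2.2.1 and TopHat2 2.0.13, with TAIR10 as genome build. The sources used here do not say whether Cuffnorm scaled the libraries or whether strand was used in counting. FPKM divides by transcript length less a correction for fragment length. On loci with 1 exon that correction came to 172 to 192 nt with RNase R and 201 to 211 nt without it. The usable length of AT3G11120 was thus 121 and 126 nt in dbr1-2 and 107 and 106 nt in Col-0 with RNase R. Without RNase R it was 97 and 92 nt in dbr1-2 and 94 and 87 nt in Col-0. The RNase R difference of AT3G11120 therefore depends on the correction too. The correction and the worth of 1 FPKM were chosen in each library to bring the most low values near whole read counts. At that best fit 98.6% to 99.5% of low values came within 0.05 read of a whole read count, so this share is no separate check. The fit also gave the approximate reads of the genes from their annotated exons inside the listed interval.

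Two-sided tests on log2(FPKM + 1) were made in R 4.3.3 with limma 3.58.1 over the 14351 loci that had no less than 1 FPKM in 2 or more of 8 libraries. All 8 libraries entered 1 model of 4 groups with eBayes and a trend, and p-values were adjusted by Benjamini-Hochberg over all tested loci, with calls at an adjusted p under 0.05. This scale understates the change of low loci. The scripts were tested on simulated data. Coordinates, exons and coding sequences come from the TAIR10.1 RefSeq annotation. Tables were made in Python 3.11.15 with pandas 2.3.3, numpy 2.4.6 and scipy 1.17.1, and plots with matplotlib 3.10.9.

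The members, gene lists, naming rule and alternatives were chosen with earlier results of these data known. The text names all 10 members, AT1G56045, DBR1, the 5 loci nearest in profile, and of each list (other cytosolic ribosomal proteins, translation and nucleolus genes, other short proteins) the 3 lowest and 2 highest by mean RNase R difference and the 3 called with the smallest p each way per genotype comparison, or a part of these. The second locus named AT3G43980 and the shortest other ribosomal protein genes (for S30, S28 and L38) were added after their values were seen. Alternatives were TPM, median-ratio scaling, a pseudocount of 0.1, a filter at a mean FPKM of at least 5, no filter, removal of organelle and ribosomal RNA loci, only the 4 libraries compared, tag year as a covariate, a replicate block and each library left out in turn.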

Additional observations from a re-analysis of the deposited data

How the results depend on the processing

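Over all loci the median moved with scaling. RNase R medians in dbr1-2 and Col-0, -0.69 and -0.66 as deposited, became -2.69 and -2.67 as TPM, -3.26 and -3.16 with organelle and ribosomal RNA loci removed and -0.09 and -0.07 after median-ratio scaling. The members' medians in dbr1-2 and Col-0 were -6.41 and -6.58 as TPM, -6.91 and -7.00 with those loci removed, -3.02 and -3.57 after median-ratio scaling and -4.47 and -5.34 with a pseudocount of 0.1; a mean FPKM of at least 5 gave -4.47 in Col-0. Relative to all loci they lay between -2.93 and -3.73 in dbr1-2 and between -3.41 and -3.91 in Col-0 over the deposited values and these 3 scalings.

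Between genotypes without RNase R, 2518 loci were called, against 934 with a mean FPKM of at least 5, 1197 after median-ratio scaling, 5847 with only the 4 libraries compared, 1467 with a pseudocount of 0.1 and 819 to 3454 with a library left out. The split of 2042 higher and 476 lower became 760 and 437 after median-ratio scaling, 1878 and 1277 as TPM and 1097 and 647 with organelle and ribosomal RNA loci removed. No member was called under any of these. With RNase R, 5315 loci were called, against 1715 as TPM, 1771 with a mean FPKM of at least 5, 2633 with only the 4 libraries compared, 1236 with organelle and ribosomal RNA loci removed and 2423 with tag year as a covariate. Members called were 3, against 1 as TPM, 0 with organelle and ribosomal RNA loci removed (0.0523 the lowest adjusted p by limma), 1 with tag year as a covariate, 2 with no filter, 2 with only the 4 libraries compared, and 2 to 3 with a library left out.

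Uncalled differences near 0 changed sign. Without RNase R, as TPM, after median-ratio scaling and with organelle and ribosomal RNA loci removed, AT3G56020 was at -0.12, -0.13 and -0.12, AT2G25210 at -0.065, -0.081 and -0.068, AT4G31985 at -0.019, -0.037 and -0.022, AT3G44010 at -0.067, -0.084 and -0.070 and AT4G33865 at -0.11, -0.12 and -0.11. With RNase R AT4G31985 was at -0.070, -0.12 and -0.19 under these 3, and with tag year as a covariate it was at -0.20 and AT3G43980 at -0.090. Leaving out a library gave, without RNase R, -0.23 to 0.29 for AT3G56020, -0.39 to 0.10 for AT2G40205, -0.14 to 0.30 for AT2G25210, -0.25 to 0.036 for AT3G02190, -0.024 to 0.28 for AT4G31985, -0.25 to 0.20 for AT3G43980, -0.026 to 0.19 for AT3G44010 and -0.15 to 0.23 for AT4G33865, and with RNase R -0.41 to 0.22 for AT3G02190, -0.23 to 0.30 for AT4G31985 and -0.055 to 0.52 for AT3G43980. The cause of these shifts was not tested.

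The replicate block left 3 members called with RNase R (lowest limma adjusted p = 0.000563) and 0 without it (0.334), and called 5206 and 2341 loci. The numbers share a tag year without RNase R, where deviations of same-numbered libraries from their group means correlated at 0.30; the other 5 pairs of groups lay between -0.05 and 0.08, so the number is not a pairing over all groups. The 14 reads or fewer per gene and library with RNase R limit what that comparison can show.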

Other observations

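Beyond the ribosome, the list of 12 translation and nucleolus genes held genes called between genotypes without RNase R: 2 were higher in dbr1-2, 2 lower and 8 not called by limma, where 17.5% of all tested loci were called. Nucleolin, encoded by NUC1 (AT1G48920) and needed to process ribosomal RNA, averaged 25.7 ± 0.29 FPKM in dbr1-2 and 48.1 ± 0.57 FPKM in Col-0 (SD, n = 2 each; log2 -0.88, limma adjusted p = 0.000592). FIB2 (AT4G25630), a fibrillarin of the nucleolus, was also lower, at 3.77 ± 0.07 FPKM in dbr1-2 and 5.68 ± 0.50 FPKM in Col-0 (limma adjusted p = 0.0303). The translation factor EIF5A gene AT1G69410 was higher, at 15.2 ± 0.53 FPKM in dbr1-2 and 6.36 ± 0.40 FPKM in Col-0 (limma adjusted p = 0.00261), and so was TCTP (AT3G16640), at 77.3 ± 4.73 FPKM in dbr1-2 and 57.6 ± 2.91 FPKM in Col-0 (limma adjusted p = 0.0481). With RNase R, 2 of the 12 were higher in dbr1-2, 4 lower and 6 not called, beside 29.9% higher and 7.09% lower over all tested loci, and their median difference with RNase R minus without was -0.87 in dbr1-2 and -0.70 in Col-0.

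Of 15 other genes for short proteins, 12 are in the table and all were tested. Their median difference, with RNase R minus without, was -1.88 in dbr1-2 and -2.20 in Col-0, between that of all tested loci and that of the L41, L39 and S29 genes. The metallothionein MT2B (AT5G02380) averaged 8.37 FPKM in dbr1-2 with RNase R, against 128 FPKM without it. In Col-0 it averaged 2.61 FPKM with RNase R, against 100.2 FPKM without it. MT3 (AT3G15353), of the same protein family, averaged 157 FPKM in dbr1-2 with RNase R, against 94.1 FPKM without it. Its means in Col-0 were 86.1 FPKM with RNase R, against 82.0 FPKM without it. Between genotypes, 2 were higher in dbr1-2 and 0 lower without RNase R, and 6 were higher and 1 lower with it (limma), where over all tested loci 17.5% were called without RNase R and 37% with it, 29.9% as higher.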
